A study of Mus musculus with 12 samples.

Results

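The comparison described here set 3 whole-pancreas RNA libraries of saline-treated mice labelled Atf3-/- (codes S1, K4 and Q1) against 3 of saline-treated wild-type mice (codes W1, K5 and R3). The libraries were chosen by their labels alone and are 6 of the 12 in the series, the other 6 being from mice given cerulein. Both groups were on a C57Bl6 background, the Atf3-/- line being congenic, and the animals were 2 to 4 months old. All received 4 saline injections in place of cerulein, and the pancreas was taken at 4 h. The labels give neither sex, litter nor day, nor which part of Atf3 was deleted. Each library came from 1 animal, and the p-values below set the difference between groups against the spread between these animals.

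The exocrine pancreas is built mainly of acinar cells, which make digestive enzymes as zymogens, store them in granules and release them on stimulation by cholecystokinin or acetylcholine. Islets, ducts, vessels, resident leucocytes, small lymph nodes and fat lie between and around the lobules and are taken with the organ. ATF3 is a basic leucine zipper transcription factor of the ATF/CREB family that is low in resting tissue and induced by cell stress, downstream of ATF4 among other routes. In bulk RNA, fewer cells of a type and less RNA per cell cannot be told apart.

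The libraries held 18292997 to 26785935 counts, and 11035 to 11858 genes reached 1 CPM in each, CPM being counts scaled to a common library total. The totals were scaled by TMM, with factors from 0.851 in Q1 to 1.16 in K4. The 10 most abundant genes took 53.0% to 57.6% of the counts of a library. Genes of the mitochondrial genome took 0.659% to 0.735%. W1 and S1 carried Xist counts (146 and 207 CPM) and none from 4 chromosome Y genes, a count that allows at most 0.174 CPM in W1 and 0.113 CPM in S1. In K5, R3, K4 and Q1 the Y genes were counted and Xist was at most 0.144 CPM. Each genotype group thus had 1 Xist-positive library and 2 Y-positive ones. Nnt, which some C57 substrains lack in part, was counted in every library, lowest in W1 and up to 37.2 CPM in Q1.

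Atf3, the targeted gene (ENSMUSG00000026628, GRCm38 chromosome 1, 191170296 to 191218039, minus strand), was counted in every library. Wild-type levels were 2.90 CPM in W1, 1.05 in K5 and 4.84 in R3, from 50, 22 and 134 counts. The libraries labelled Atf3-/- had 20.8 CPM in S1, 6.94 in K4 and 12.5 in Q1, from 551, 167 and 226 counts. Each labelled library was above each wild-type library. The counts are sums over the gene, so they do not say which exons were read and cannot check the genotype. The log2 fold change (labelled minus wild type) was 2.18 ± 0.61 (SE, n = 3 per group, 95% interval 0.70 to 3.65), with an unadjusted p of 0.0110 and an adjusted p of 0.9999 by edgeR's quasi-likelihood test. Under DESeq2 the unadjusted p was 2.64e-05 and the adjusted p 0.346. Over the 18 other settings tried the log2 fold change ran from 1.69 to 2.80 and the adjusted p from 0.346 to 1. Among the 4 Y-positive libraries it was 1.69 (unadjusted p = 0.109 by edgeR), and S1 exceeded W1, the Xist-positive pair, by 2.81 on the log2 scale.

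**Figure D1:**
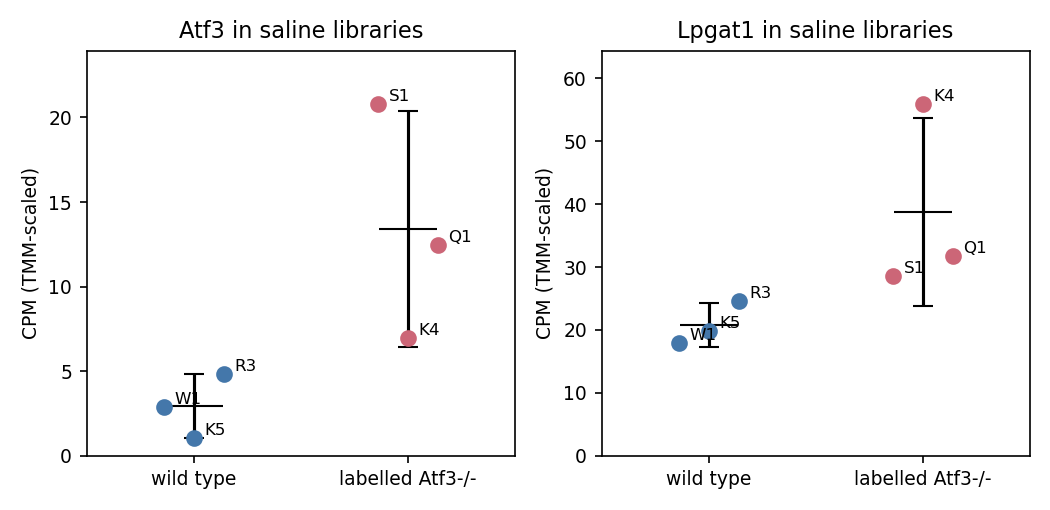
Levels of Atf3 (left) and of Lpgat1 (right), in CPM on TMM-scaled totals, in the 3 wild-type and the 3 labelled Atf3-/- saline libraries. Points are libraries, the horizontal mark is the group mean and the bar 1 SD; for both genes the 3 labelled libraries lie above the 3 wild-type ones, with S1 highest for Atf3 and K4 highest for Lpgat1.

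The 250 bases before the RefSeq start of Atf3 (GRCm38.p6, chr1:191183334-191183583, minus strand) are shown because this is the targeted gene and its levels did not overlap between the groups. Capitals mark TTGCATCA, the reverse complement of the C/EBP-ATF element TGATGCAA, and TTACGTCA, a variant of the ATF/CRE site.
Atf3: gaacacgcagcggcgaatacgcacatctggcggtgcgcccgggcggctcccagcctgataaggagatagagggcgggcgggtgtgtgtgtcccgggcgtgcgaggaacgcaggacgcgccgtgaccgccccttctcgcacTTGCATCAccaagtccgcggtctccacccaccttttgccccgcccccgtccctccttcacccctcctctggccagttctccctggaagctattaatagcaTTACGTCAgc
The first match lies 110 to 103 bases and the second 10 to 3 bases before the start. On both strands TGATGCAA occurred in 0.791% and TTACGTCA in 0.447% of 32851 windows of the same length. A match describes the letters and is not evidence of a factor bound there.

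Genes near Atf3 were examined because a congenic line can carry donor sequence around the targeted locus. Lpgat1, which encodes a lysophosphatidylglycerol acyltransferase, lies 548 kb from Atf3, measured between the lower coordinates of both genes (GRCm38 chromosome 1, 191717834 to 191784255). It stood at 17.8 CPM in W1, 19.8 in K5 and 24.6 in R3, against 28.6 in S1, 56.0 in K4 and 31.7 in Q1. The groups did not overlap, and K4 lay well above the rest. The log2 fold change was 0.90 ± 0.27 (SE, n = 3 per group), with an unadjusted p of 0.0126 and an adjusted p of 0.9999 by edgeR. Without K4 it was 0.53. Within 5 Mb of Atf3, 2 of the 40 other genes tested had an unadjusted p under 0.05 (5%, against 0.914% of all genes tested), and the median log2 fold change of the 40 was 0.03. The second was 1700034H15Rik, an antisense transcript named here after its values were seen, which went the other way at -1.16 (unadjusted p = 0.0277 by edgeR). The groups did not overlap for 2 genes higher and 2 lower, or 10% of the 40 against 4.65% of all genes. Within 20 Mb 4 of 152 (2.63%) were under that p, with a median of 0.08, and 6.58% did not overlap. No gene of either window passed the adjusted threshold, and the share of window genes that belongs to donor sequence was not tested.

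Across the genome the 2 resting profiles were close. Of 13130 genes tested, 0 passed an adjusted p of 0.05 by edgeR, and the smallest adjusted p was 0.9999. At an unadjusted p under 0.05 there were 120 genes (0.914%), of which 62 (0.472%) were higher and 58 (0.442%) lower in the labelled libraries. DESeq2 called 0 genes, with 86 at the unadjusted level, and limma-voom called 0, with 115. For 611 genes (4.65%) the 3 labelled libraries did not overlap the 3 wild-type ones, 277 (2.11%) lying above and 334 (2.54%) below. The median log2 fold change was 0.02, with quartiles of -0.09 and 0.15, and 90.8% of genes lay within 0.5 of 0 on the log2 scale. Only 5 genes had a size of change over 2, namely Atf3, Mx2, Slfn4, Igkv14-126 and Ighv11-2, and only Atf3 of these had an unadjusted p under 0.05. The median standard error was 0.22. For 9548 genes (72.7%) the 95% interval lay within a log2 change of 1 either way, and for the others it reached past a 2-fold difference. With Q1 left out the genes at an unadjusted p under 0.05 were 689, with K4 left out 305 and with R3 left out 79, and 0 passed the adjusted threshold in each.

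**Figure D2:**
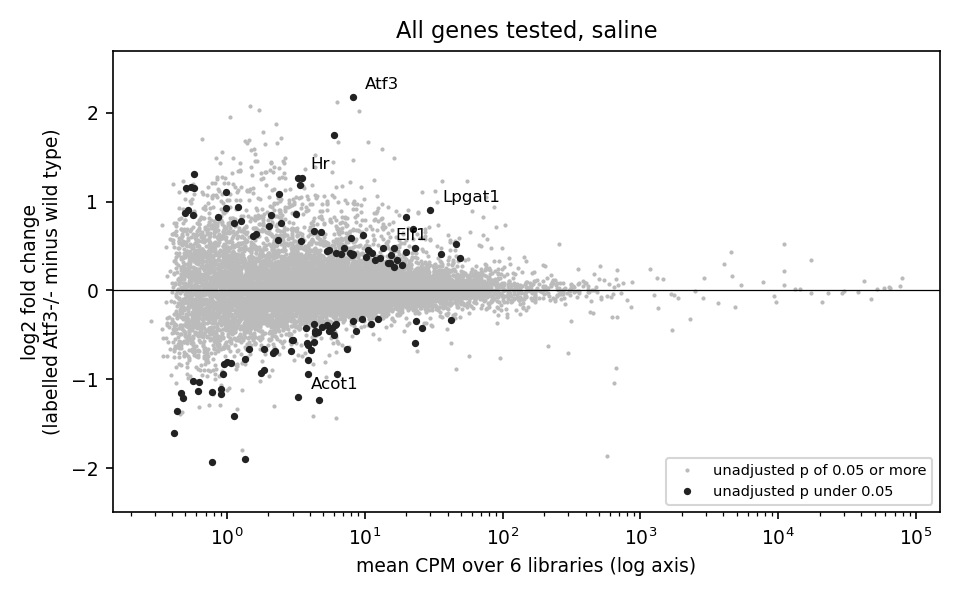
Log2 fold change (labelled Atf3-/- minus wild type) against mean CPM over the 6 saline libraries (log axis) for the 13130 genes tested. Black points are the 120 genes with an unadjusted p under 0.05 and grey points the rest; none passed an adjusted p of 0.05, and the spread narrows towards the abundant genes.

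The genes with the smallest unadjusted p, none of them past the threshold, ranged from modest differences with tight replicates to wide ones with loose replicates such as Atf3. Elf1, an ETS-family transcription factor, stood at 11.2, 11.4 and 11.6 CPM in W1, K5 and R3 and at 17.4, 14.7 and 15.5 CPM in S1, K4 and Q1. Its log2 fold change was 0.48 ± 0.12 (SE, n = 3 per group, unadjusted p = 0.00410 and adjusted p = 0.9999 by edgeR), and the groups did not overlap. The gene overlaps Wbp4 on the opposite strand, and the strand setting of the counting is not given in the sources used here. Gda, the guanine deaminase, was at 31.9 to 40.8 CPM in wild type and 50.2 to 57.7 CPM in the labelled libraries, a log2 fold change of 0.52. Tank, an adaptor of TRAF signalling, was at 10.9 to 11.7 CPM against 13.6 to 15.5 CPM. Thyn1 showed 2.64 to 2.84 CPM against 3.74 to 4.35 CPM, again without overlap. Aqp1, a water channel of ducts and vessels, was at 13.6 to 19.8 CPM against 20.4 to 34.8 CPM. Hr, a corepressor of nuclear receptors, had the widest fold of these after Atf3, at 1.27, but its groups overlapped: Q1, at 2.15 CPM, lay among the wild-type libraries at 1.45 to 2.16 CPM.

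On the lower side the first was Acot1, a cytosolic acyl-CoA thioesterase. It stood at 5.79, 3.16 and 4.77 CPM in W1, K5 and R3 and at 2.15, 1.29 and 2.54 CPM in S1, K4 and Q1. The log2 fold change was -1.20 ± 0.33 (SE, n = 3 per group, unadjusted p = 0.00661 and adjusted p = 0.9999 by edgeR), and the groups did not overlap. Acot2, its mitochondrial paralog, was at 1.97 to 3.14 CPM in wild type and 1.40 to 2.10 CPM in the labelled libraries. Reads of these near-identical genes can be split between them, so the share of each is uncertain. Among 18 tested genes of fatty acid oxidation and fasting, 3 were lower at an unadjusted p under 0.05 (Acot1, Acot2 and Acadl) and 0 higher, and 5 had every labelled library below every wild-type one. Over all genes 0.442% were lower at that level and 2.54% were lower without overlap. The list's median was -0.08, and Cpt1a, the entry step of mitochondrial fatty acid import, went the other way at 0.25 (unadjusted p = 0.347 by edgeR). Of the others with the smallest p, Rnaset2b was at 3.26 to 6.60 CPM in wild type and 2.31 to 2.83 CPM in the labelled libraries. Its near-identical copy Rnaset2a had 1.51 to 2.21 against 1.21 to 2.95 CPM, so the split between them is uncertain. Krt7, a duct keratin, was at 4.12 to 5.56 CPM against 2.81 to 3.36 CPM, and Myl9, a myosin light chain of smooth muscle, at 3.88 to 5.02 CPM against 2.54 to 3.48 CPM. Tsga10, Gstt2, Rfesd, Tepsin and Vsig10 had the same form, with log2 fold changes from -0.90 to -0.38 and no overlap between groups.

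The resting profile was that of a digestive gland. A set of 47 secretory genes took 69.3% (K4) to 74.2% (Q1) of all counts, and the chymotrypsins, elastases and carboxypeptidases alone took 36.4% to 39.8%. Pnlip, the triglyceride lipase, and Ctrb1, a chymotrypsinogen, led every library. Per kilobase of exon Ctrb1 was the highest of the 15 most abundant genes, at 87507 CPM per kb on average, ahead of the trypsinogen Prss2 at 57590. The elastases Cela1 and Cela2a, the carboxypeptidases Cpa1 and Cpb1 and the bile-salt lipase Cel followed by total counts. Pnlip was at 82894, 74055 and 69040 CPM in wild type and at 78369, 66062 and 105160 CPM in S1, K4 and Q1. On these TMM-scaled levels Q1 was highest and K4 lowest, with the wild-type libraries between them. The log2 fold change of Pnlip was 0.14 ± 0.22 (SE, n = 3 per group, unadjusted p = 0.541 by edgeR). Summed over the 9 lipases and amylases K4 was also lowest on this scale, at 162468 CPM. As a share of all counts these genes took 18.8% in K4, 18.0% to 18.5% in wild type, 16.9% in S1 and 20.1% in Q1. The place of K4 for these genes thus depended on the scaling.

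With every library kept, log2 fold changes of chymotrypsins, elastases and carboxypeptidases spanned a narrower range than those of trypsinogens or lipases and amylases. Over the 11 chymotrypsins, elastases and carboxypeptidases the log2 fold changes ran from -0.07 to 0.10, with a median of 0.03, and 0 had an unadjusted p under 0.05. K4 had the lowest level of 8 of the 11 and Q1 the highest of 8. The median went to -0.13 without Q1 and to 0.17 without K4. Trypsinogens had a median of 0.17 over 8 tested genes, with a range of -1.12 to 0.38. Their median was -0.09 without S1 and 0.39 without K4. Try4 was at 28765 CPM in S1 against 10484 to 19169 CPM elsewhere. Over the 9 lipases and amylases the log2 fold changes ran from -1.86 to 0.29. Their median of 0.10 went to -0.12 without Q1 and to 0.13 without K4. The lowest fold change was that of Amy1 (unadjusted p = 0.0775 by edgeR), which was high in W1 alone. Amylase and trypsinogen genes lie in tandem copies, and their separate values depend on how shared reads were counted. Granule proteins such as Gp2, Sycn and Zg16 had a median of -0.03 over 11 genes, and 0.10 without K4. Sycn, which coats the inner granule membrane, was at 5972 CPM in S1 and 8685 to 11264 CPM in the others.

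Genes that keep acinar cells differentiated overlapped between the groups in most cases. Ptf1a, the acinar master factor, was at 44.6, 39.5 and 36.7 CPM in wild type and 42.7, 22.4 and 50.2 CPM in S1, K4 and Q1. Cckar, the cholecystokinin receptor that cerulein acts on, was at 289 to 310 CPM against 250 to 278 CPM. The 2 groups did not overlap for Cckar, at a log2 fold change of -0.16 (unadjusted p = 0.272 by edgeR). Bhlha15, a factor of secretory maturity, ran from 129 CPM in S1 to 304 CPM in K5, and Xbp1, a factor of the secretory stress response, from 382 to 533 CPM. Over 16 tested genes of acinar identity and secretagogue receptors the median was -0.10, and 0 had an unadjusted p under 0.05.

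The Reg genes, small secreted lectins that acinar cells raise in injury, were high in some libraries of each genotype and low in others. Reg3g was at 605 CPM in W1, 46.3 in K5 and 396 in R3, and at 666 in S1, 61.5 in K4 and 98.4 in Q1. W1, R3 and S1 were high and K5, K4 and Q1 low, with both levels in each group. Reg3b split the libraries the same way at 3736, 889, 2968, 4074, 520 and 1498 CPM, and Reg2 at 3001, 510, 2353, 3244, 443 and 607 CPM. The median log2 fold change of the 6 tested Reg genes was -0.33, and it went to -1.61 without S1 and to 0.66 without K4 and Q1.

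How close the libraries were was measured on log2 CPM over all tested genes. Across genes, which are not independent replicates, Pearson's r was 0.953 to 0.973 within wild type, 0.917 to 0.949 within the labelled group and 0.948 to 0.975 between groups. Euclidean distances were 53.7 to 72.7 within wild type (median 59.3) and 75.3 to 105 among the labelled libraries (median 84.8). Between groups they were 53.8 to 79.7, with a median of 71.9 that lay between the other medians. By Pearson's r and by distance the closest of the 9 cross-genotype pairs was W1 with S1. By Spearman's rank correlation K5 with Q1 was closer, at 0.9783 against 0.9776 for W1 with S1. K4 with Q1 was the farthest of all pairs on each measure. Principal component 1 took up 44.0% of the variance and set K4 (-46.5) and Q1 (55.3) at opposite ends. Car3, Adipoq, Cfd and Lep, all fat genes, led it. Component 2 took up 27.2% and set W1 and S1 apart from K5 and K4, led by Y genes, with Dbp, Per3 and Reg3g among its leading genes. Neither component ordered the libraries by genotype.

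**Figure D3:**
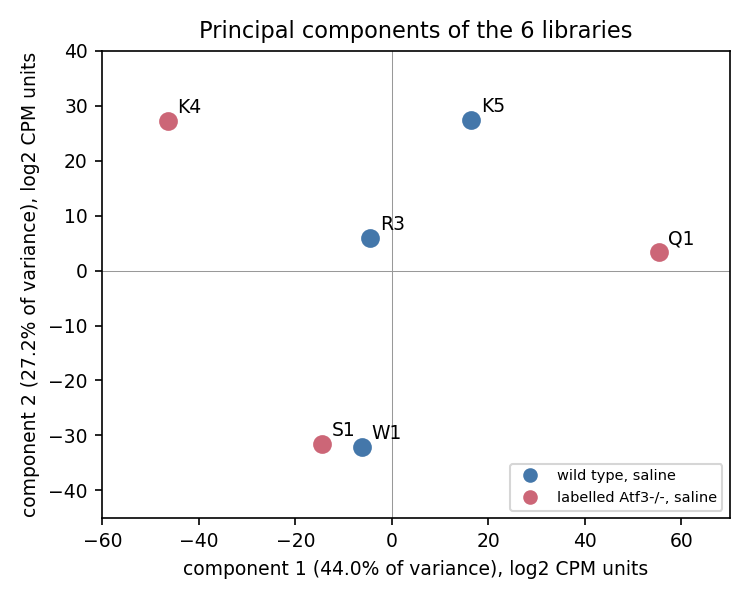
Position of the 6 saline libraries on the first 2 principal components of log2 CPM, which hold 44.0% and 27.2% of the variance. Blue points are wild type and red points labelled Atf3-/-; K4 and Q1 lie at opposite ends of the first component, and W1 and S1 lie together at the low end of the second.

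Fat-cell genes set K4 and Q1 apart. Adipoq, the adipokine that marks mature adipocytes, was at 22.3, 4.75 and 17.6 CPM in W1, K5 and R3 and at 5.55 and 63.8 CPM in S1 and K4, while Q1 had 0 counts, which allows at most 0.165 CPM. Car3, an abundant carbonic anhydrase of fat, was at 59.9, 30.2 and 57.4 CPM in wild type and at 23.6 in S1, 283 in K4 and 0.221 in Q1. Both labelled extremes lay outside the wild-type range, on opposite sides. Cidec and Plin1, which coat lipid droplets, were at 68.6 and 24.0 CPM in K4, against at most 10.5 and 3.68 CPM in the other libraries. Lep, leptin, was at 59.2 CPM in K4 and at most 13.4 CPM elsewhere. K4 had the highest level of 15 of the 16 adipocyte genes and Q1 the lowest of 13, with 5 at 0. The summed level of the list was 263 to 397 CPM in wild type and 273, 1266 and 167 CPM in S1, K4 and Q1. The list's median log2 fold change over 15 tested genes was 0.66, but it was -0.75 without K4 and 1.14 without Q1. The brown-fat markers Ucp1, Cidea and Elovl3 were at or near 0 in all 6 libraries, at most 0.125 CPM.

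Scd1, the stearoyl-CoA desaturase, is a gene of lipid synthesis with high levels in fat. It stood at 233, 31.9 and 131 CPM in W1, K5 and R3 and at 49.2, 436 and 13.2 CPM in S1, K4 and Q1, in the order of libraries seen for Adipoq. K4 and Q1 again held the extremes. Lpl, lipoprotein lipase, was at 250 CPM in K4 and 38.6 to 66.6 CPM in the rest.

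B-cell and plasma-cell genes were high in 1 library of each genotype. Ighm, the heavy chain of IgM, was at 179 CPM in W1, 25.3 in K5 and 21.4 in R3, and at 36.1 in S1, 149 in K4 and 10.3 in Q1. Igkc, the kappa light chain, was at 87.3 CPM in W1 and 84.4 CPM in K4, against 3.92 to 22.2 CPM in the others. Summed over 264 immunoglobulin gene segments the level was 349 CPM in W1, 376 in K4 and at most 89.4 in the other 4. The segments differed between the 2 high libraries: Igkv3-2 was at 29.0 CPM in W1 and 2.54 in K4, and Igkv14-126 at 1.97 in W1 and 29.6 in K4. Ms4a1, the B-cell surface protein CD20, was at 9.02 CPM in K4 and 1.85 CPM in W1. In K5, R3 and S1 it was 1.78 to 2.01 CPM, so W1 was not set apart by Ms4a1.

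T-cell genes were low throughout. The 226 T-cell receptor segments summed to 1.30 to 3.88 CPM, and 11 of the 18 genes of T and NK cells were highest in K4. The lymph-node stroma markers Ccl19 and Ccl21a had 0 to 1 count per library, and Glycam1 was at most 0.166 CPM. Cxcl13, a chemokine that attracts B cells, was at 107 CPM in K4, 2.76 in Q1 and 10.4 to 41.9 in the rest.

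Myeloid genes followed the same order, with K4 high and Q1 low. Lyz2, the lysozyme of macrophages and neutrophils, was at 84.5, 54.0 and 95.8 CPM in wild type and 126, 233 and 30.2 CPM in S1, K4 and Q1. K4 had the highest level of 15 of 16 macrophage and dendritic-cell genes and Q1 the lowest of 13. S100a9, a neutrophil calcium-binding protein, was at 36.0 CPM in K4, 0.883 in Q1 and 2.49 to 12.3 in the others. All 7 tested neutrophil genes had a positive log2 fold change, with a median of 1.25, which was -0.08 without K4. The mast-cell protease genes Cpa3, Cma1 and Mcpt4 were at 6.07, 4.16 and 5.65 CPM in K4 and at most 2.42 CPM elsewhere. The part of fat and leucocytes carried with the organ in the genotype differences of these lists was not tested beyond leaving out K4 and Q1.

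**Figure D4:**
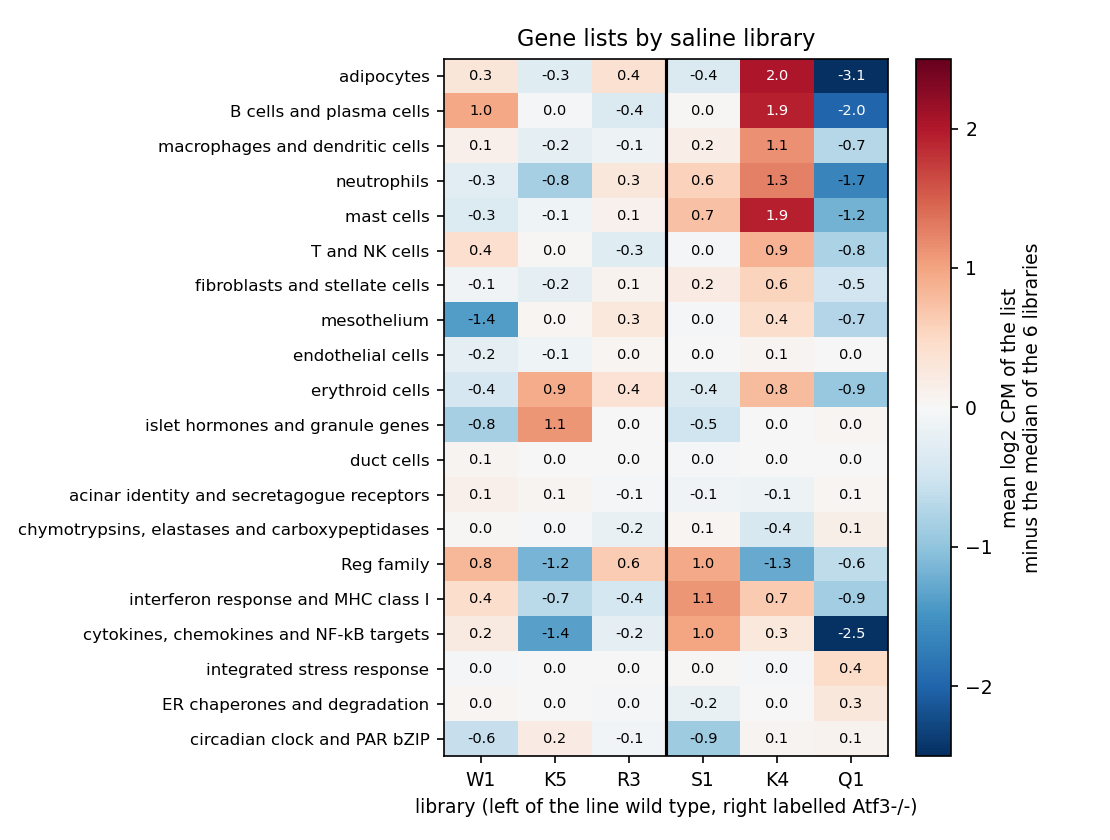
Mean log2 CPM of each of 20 gene lists in each saline library, minus the median of the 6 libraries, with wild type left of the line. The printed values show K4 highest and Q1 lowest for adipocytes (2.0 and -3.1), K5 highest for islets (1.1), and S1 highest for the interferon list (1.1); colours stop at 2.5 either way.

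Islet genes were highest in K5, a wild-type library. Ins2 was at 337, 1514 and 747 CPM in W1, K5 and R3 and at 333, 580 and 503 CPM in S1, K4 and Q1. K5 held at least 2-fold more than any other library, and W1 and S1 were lowest. Gcg, glucagon, was at 283 CPM in K5 and 74.8 to 167 CPM elsewhere. Ppy, the hormone of the islet cells most frequent in the pancreatic head, showed the widest gap, at 13.3 CPM in K5 and 1.10 to 3.76 CPM elsewhere. K5 had the highest level of 25 of 26 islet genes. The list's median log2 fold change was -0.43 over 25 tested genes, with 24 below 0, and it was 0.27 without K5.

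Erythroid genes, which trace retained blood, were high in K5, R3 and K4. Hbb-bs was at 50.5, 138 and 121 CPM in W1, K5 and R3 and at 69.7, 132 and 37.0 CPM in S1, K4 and Q1, so both genotypes held high and low libraries. Fibroblast genes had a median of 0.24 over 14 genes, with K4 the highest for 10 and Q1 the lowest for 9, and -0.05 without K4. Col3a1 was at 50.5 to 64.4 CPM in wild type and at 78.7, 136 and 48.2 CPM in S1, K4 and Q1. Mesothelial genes, from the organ's covering, were low in W1 and Q1: Lrrn4 was at 0.290 CPM in W1, 1.54 in Q1 and 2.15 to 6.15 in the others. Endothelial and duct genes had medians of 0.09 and -0.10. Of the 17 tested duct genes 2 had an unadjusted p under 0.05 (0.914% of all genes did), Aqp1 higher and Krt7 lower as described above, while 0 of the 12 endothelial genes did. Pecam1 was at 23.2 to 27.3 CPM in wild type and 27.5 to 31.7 CPM in the labelled libraries without overlap, at a log2 fold change of 0.22 (unadjusted p = 0.113 by edgeR). Krt19, the classical duct keratin, was at 8.88 to 11.3 CPM against 8.22 to 10.1 CPM. Genes of gut, liver and skeletal muscle summed to at most 5.23 CPM per list in any library.

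S1 had the highest level of most interferon and chemokine genes. Mx1, an antiviral GTPase, was at 2.26, 0.336 and 0.433 CPM in W1, K5 and R3 and at 7.97, 2.25 and 0.331 CPM in S1, K4 and Q1. Cxcl10, an interferon-induced chemokine, was at 34.7 CPM in S1, 11.9 in W1, 12.3 in K4 and at most 2.09 in the other 3. In both genes S1 was highest and Q1 lowest, and the groups overlapped. S1 had the highest level of 17 of 24 interferon and MHC class I genes and of 22 of 26 cytokine, chemokine and NF-kB genes, and Q1 the lowest of 14 and 21. By summed level the interferon list was highest in K4, at 660 CPM against 617 CPM in S1, and the cytokine list in S1, at 536 CPM against 382 CPM in K4. All 24 interferon genes had a positive log2 fold change, with a median of 0.70, and 0 had an unadjusted p under 0.05. Over all 13130 genes 7258 were positive. Without S1 the median was 0.19. The cytokine list's median was 0.45, and -0.07 without S1.

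S1 also stood apart in other genes. Sptbn5, a spectrin, was at 16.9 CPM in S1 and 0.607 to 4.23 CPM elsewhere. Cdkn1a, the cell-cycle inhibitor p21, was at 59.7 CPM in S1 and 12.3 to 24.1 CPM elsewhere, and Trp53inp1, another gene that p53 induces, at 138 CPM in S1 and 25.8 to 70.5 CPM elsewhere. Klk1b11, one of a tandem family of tissue kallikreins, was at 84.2 CPM in S1 and 6.94 to 24.5 CPM elsewhere. The 13 Klk1b genes summed to 369 CPM in S1 and 146 to 185 CPM in the rest, and since they are near-identical copies the share of each is uncertain.

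Most genes of the integrated stress response and of ER stress were highest in Q1, the library poorest in fat and leucocyte RNA. Chac1, a glutathione-degrading enzyme downstream of ATF4, was at 9.91, 7.24 and 7.94 CPM in wild type and at 9.11, 7.03 and 19.7 CPM in S1, K4 and Q1. Trib3, a pseudokinase of the same branch, was at 5.13 CPM in Q1 and 1.45 to 2.73 CPM elsewhere. Herpud1, which serves degradation at the endoplasmic reticulum (ER), was at 851 CPM in Q1 and 346 to 534 CPM elsewhere, and Hspa5, the main ER chaperone, at 669 CPM against 374 to 459 CPM. Q1 had the highest level of 17 of 24 integrated-stress genes and of 16 of 25 ER genes. By summed level the ER list was also highest in Q1, at 6077 CPM, but the integrated-stress list was highest in W1, at 5211 CPM against 4642 CPM in Q1. Other lists were also mostly highest in Q1: 19 of 25 ribosomal protein genes and 8 of 11 chymotrypsins, elastases and carboxypeptidases. The share of all genes highest in Q1 was not computed. Heat shock genes did not follow: 1 of 14 was highest in Q1 and 6 in K4, and their median was -0.01. The integrated-stress and ER lists had medians of 0.20 and 0.06, or -0.02 and -0.10 without Q1, and 0 of their genes had an unadjusted p under 0.05. Q1 also had the lowest TMM factor, 0.851. The part of this scaling and of the low fat and leucocyte share of Q1 in these levels was not tested. Atf4 itself was at 132, 96.1 and 108 CPM in wild type and 119, 88.2 and 138 CPM in S1, K4 and Q1.

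Of 20 tested ATF, CREB and C/EBP factors only Atf3 had an unadjusted p under 0.05, and the median was 0.09, or -0.01 without K5. Ddit3, the stress factor CHOP, was at 1.55 to 3.13 CPM in wild type and 1.85 to 2.37 CPM in the labelled libraries, and Jdp2, the closest relative of Atf3, at 1.97 to 3.68 against up to 4.07 CPM. Immediate early genes, which handling of tissue can raise, had a median of 0.12 over 26 tested genes. Fos was at 0.479 to 1.33 CPM in wild type and at 2.08, 2.29 and 0.331 CPM in S1, K4 and Q1. Jun was highest in W1, at 29.5 CPM, and Junb lowest in K5, at 8.10 CPM against 12.1 to 43.7 CPM in the others. At these low levels Fos was above every wild-type library in S1 and K4 and below them in Q1. The part of tissue handling in the Atf3 levels was not tested.

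W1 and S1, 1 library of each genotype, shared a pattern of clock genes. The clock runs on a loop in which ARNTL with CLOCK drives Per, Cry, Dbp, Tef and Ciart through E-box sites, and Arntl cycles in antiphase to them. Dbp, a PAR bZIP factor, was at 6.43 CPM in W1 and 1.55 in S1, against 43.0 in K5, 31.3 in R3, 40.5 in K4 and 26.0 in Q1. Per3 was at 2.90 and 1.93 CPM in W1 and S1 and 12.5 to 21.4 CPM in the other 4, and Tef at 16.6 and 7.90 against 54.4 to 76.9 CPM. Arntl ran opposite, at 7.71 CPM in W1 and 14.2 in S1 against 1.01 to 3.26 CPM. Nfil3, a repressor of the PAR bZIP targets, was at 13.3 CPM in S1 and at most 4.69 CPM elsewhere. Both libraries lay below the other 4 by at least 2-fold for 5 clock genes and above them for 1, of 25 and 8 tested genes in all, 5 of the 25 being on chromosome Y. The genotype fold changes of this list had a median of -0.14 over 18 tested genes, and 0 had an unadjusted p under 0.05. The median was 0.21 without K5, 0.16 without S1 and -0.80 without K4 and Q1. Dbp overlaps Sphk2 on the opposite strand, and Per3 overlaps Camta1 on the same strand.

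**Figure D5:**
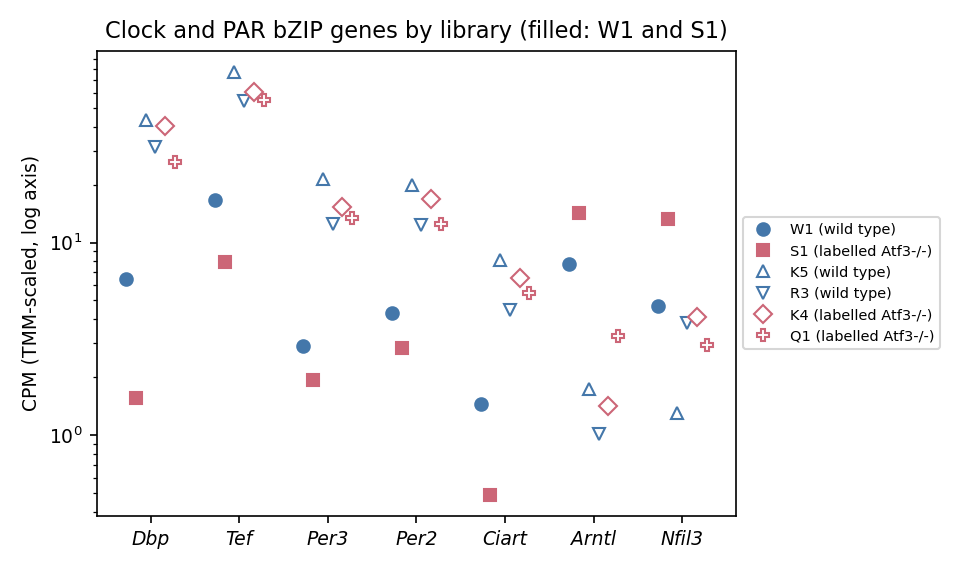
CPM (log axis) of 7 clock and PAR bZIP genes in the 6 saline libraries, blue for wild type and red for labelled Atf3-/-. Filled symbols are W1 and S1, which lie below the other 4 libraries for Dbp, Tef, Per3, Per2 and Ciart and above them for Arntl.

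Upstream sequences of Ciart and Tef are shown because, of the genes that were low in W1 and S1, these have an E-box match in the window. The windows are the 250 bases before a RefSeq start (GRCm38.p6), that of Ciart at chr3:95882229-95882478 on the minus strand and that of the first start of Tef at chr15:81802423-81802672. Capitals mark the E-box CACGTG, a palindrome that reads the same on both strands.
Ciart: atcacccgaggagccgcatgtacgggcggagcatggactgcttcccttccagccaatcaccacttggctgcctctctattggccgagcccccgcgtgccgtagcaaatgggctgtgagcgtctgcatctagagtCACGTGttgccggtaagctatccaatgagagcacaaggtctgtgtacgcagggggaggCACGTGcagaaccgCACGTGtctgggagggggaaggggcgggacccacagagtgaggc
Tef: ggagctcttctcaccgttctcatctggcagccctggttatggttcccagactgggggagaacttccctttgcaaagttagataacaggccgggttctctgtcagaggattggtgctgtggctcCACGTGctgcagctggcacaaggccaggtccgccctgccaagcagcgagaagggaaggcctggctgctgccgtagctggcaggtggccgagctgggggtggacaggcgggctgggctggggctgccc
Ciart held 3 matches and Tef 1, while the windows of Dbp and Per3 held none, which says only that these letters are not there. The E-box occurred in 6.02% of the 32851 windows and in 6 of the 21 windows of the 16 clock genes found in the table.

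The same pair of libraries differed from the rest in transcripts that collect ribosomal RNA reads. Gm42418, which overlaps a ribosomal RNA repeat, was at 696 and 947 CPM in W1 and S1 and at 1987 to 2598 CPM in the others. Lars2, which holds a similar stretch, was at 50.5 and 48.3 CPM against 118 to 142 CPM. C7, a complement component of mesenchymal cells, was at 0.811 and 0.756 CPM against 5.19 to 16.7 CPM, and Gal, the neuropeptide galanin, was at 111 and 179 CPM against 28.5 to 58.9 CPM. Xist counts, clock gene levels and these transcripts moved together in W1 and S1, and what they have to do with each other was not tested. With a term for these libraries in the model, 0 genes passed the threshold by edgeR, and 169 had an unadjusted p under 0.05.

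W1 differed alone in a few genes. Amy1, the salivary-type amylase, was at 2172 CPM in W1 and 237 to 290 CPM in the other 5, and Amy2a2, of the pancreatic cluster, at 1673 CPM in W1 and 140 to 612 CPM elsewhere. The gap for Amy1 was larger than the spread of the other libraries, but reads shared among amylase copies and with Rnpc3, which overlaps Amy1 on the same strand, make its level uncertain. mt-Co3 was at 18.8 CPM in W1 and 2.33 to 4.37 CPM elsewhere. It overlaps mt-Atp6 on the same strand, so its level is uncertain as well. By the number of genes of at least 5 CPM that 1 library held at 2-fold or more above the next, K4 had 165, S1 23, K5 16, W1 5, and R3 and Q1 0. Below the next lowest, Q1 had 24, S1 4, and W1, K5 and K4 1 each. Proliferation genes were low in all: Mki67 was at 1.25 to 2.43 CPM in wild type and at 2.61, 4.82 and 1.82 CPM in S1, K4 and Q1.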

How the data were processed

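RNA-seq of whole mouse pancreas gave 1 library per animal from a stranded total RNA kit, per the labels. The authors deposited whole-number read counts per Ensembl gene with no normalization, with HTSeq, DESeq2 and mm10 named, unversioned, in the submitters' processing notes. Not given in the sources used here are the aligner, annotation release and strand setting. Identifiers of 49326 of the 49585 listed genes were found in GENCODE M21 (GRCm38). The 6 saline libraries, of 18292997 to 26785935 counts, were filtered with filterByExpr, scaled by TMM and compared with edgeR 4.0.16 (R 4.3.3) by a robust, two-sided quasi-likelihood test. Benjamini-Hochberg adjusted p-values were held to a threshold of 0.05. The common biological coefficient of variation was 0.261. Standard errors were taken from the fold change and F, and log2 CPM used a prior count of 2. Limma 3.58.1 and DESeq2 1.42.0 were alternatives. The script was tested on simulated data. Named genes were Atf3, the 15 most abundant, the 10 with the smallest p in each direction (unnamed models passed over, 1 higher and 4 lower), the genes with the widest gaps in 1 library, and the most abundant members of 41 gene lists (604 of 606 entries found). Others, such as Trp53inp1, Mx2, Fos and Nnt, were named after their values were seen, and 3 genes are not reported here. The members and lists were chosen with earlier results of these data known. Confidence intervals are at 95%, and the limit for a count of 0 is 3 counts per library and covers counting error only. Promoter sequences are RefSeq's for GRCm38.p6. Figures used matplotlib 3.10.9.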

Additional observations from a re-analysis of the deposited data

How the results depend on the processing

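In all, 0 genes passed the adjusted threshold in 17 of the 18 other settings. These were 3 other scalings, 2 other filters, DESeq2, limma-voom, all 12 libraries, 11 without the cerulein library C3, each of the 6 libraries left out, a term for Xist-positive libraries, and the 4 Y-positive libraries alone. The exception left out K4 and Q1 together, chosen after seeing the data, where S1 alone stood for the labelled group and was assumed to vary like wild type. Then 2 genes passed by edgeR, both higher, among them Trp53inp1 (log2 fold change 1.72, adjusted p = 0.0375). The count at an unadjusted p under 0.05 was 120 at first, 717 in that setting, 56 with plain totals, 60 with all 12 libraries, 289 without a filter, and 79 to 689 with 1 library left out. Atf3 kept its direction throughout. The median of 31 of 40 gene lists changed sign when 1 library was left out. Among them were the adipocyte, B-cell and neutrophil (K4), islet and clock (K5) and trypsinogen (S1) lists. The list of chymotrypsins, elastases and carboxypeptidases and the integrated-stress list did so without Q1. No paired analysis was made because no full library code is shared between the groups. K5 and K4 share a letter, and the labels do not say what the letters stand for.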
